A study of Mus musculus with 6 samples.

Results

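Cytosolic ribosomal proteins build the small (40S) and large (60S) subunits of the ribosome that translates nuclear messenger RNAs. Their genes were chosen by name: every probe set whose platform annotation gives a single symbol of the form Rpl or Rps followed by a digit, or Rplp0, Rplp1, Rplp2 or Rpsa, without S6 kinases and named pseudogenes. This gave 100 probe sets for 48 of the 12393 genes that had a probe set of their own. Of these, 42 genes with 91 probe sets encode proteins of the subunits (20 small, 22 large), and 6 further genes (Rps4l, Rps27l, Rpl22l1, Rpl7l1, Rpl3l and Rpl39l) are paralogs and are reported separately.

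Messenger RNA was measured in colonic crypts of male mice carrying 1 copy of Lgr5-lacZ, a reporter at the locus of the stem cell receptor Lgr5, on 6 Affymetrix arrays in 3 groups of 2. Control crypts came from the pooled distal colons of 2 untreated mice per array. DSS crypts came from 2 mice per array at day 2 of 1% dextran sulfate sodium (DSS), a polysaccharide that injures the colonic epithelium, in the drinking water. Tumor samples were pools of 12 adenomas from 2 mice per array. Those mice had received the carcinogen azoxymethane at 12.5 mg per kg, then DSS at 2%, 1.5% and 1.0% in cycles of 5 days, each with 14 days of water, and the adenomas were taken 90 days after azoxymethane. All mice are labelled as 6 to 8 weeks old, although adenomas were collected later, and no untreated mice of that later age were analysed here, so age and tumor cannot be told apart. The labels call the arrays of a group biological replicates.

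A ribosome needs 1 copy of nearly every such protein, and in growing cells their messenger RNAs are among the most abundant. Many of these messages start with a C followed by a run of pyrimidines, the 5' terminal oligopyrimidine (TOP) motif, through which the kinase mTORC1 and the RNA-binding protein LARP1 control how much of them is translated. That control acts mainly on translation, which an expression array does not measure. The colonic crypt renews its epithelium continuously and depends on protein synthesis for it.

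A minority of the annotated start sites show the feature that gives these messages their common name, and the windows with capitals below were chosen from those. RefSeq promoter windows on GRCm38.p6 were matched for 37 of the 42 genes, with 43 start sites in all. The windows that follow run from 20 bases before the annotated start to 20 bases from it, 5' to 3', for a stalk protein, another large subunit protein and 3 small subunit proteins. Capitals mark the pyrimidine run that holds the start.
Rplp2: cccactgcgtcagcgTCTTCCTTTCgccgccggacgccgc
Rpl35: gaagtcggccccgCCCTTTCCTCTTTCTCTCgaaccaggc
Rps6: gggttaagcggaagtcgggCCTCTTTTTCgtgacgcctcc
Rps18: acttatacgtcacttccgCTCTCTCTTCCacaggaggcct
Rps27: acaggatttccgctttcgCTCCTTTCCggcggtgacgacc
They lie at chr7:141447631-141447670 on the plus strand for Rplp2 and, on the minus strand, at chr2:39005112-39005151 for Rpl35, chr4:86857348-86857387 for Rps6, chr17:33955646-33955685 for Rps18 and chr3:90213629-90213668 for Rps27. For contrast, the window of Rps4x, at chrX:102189372-102189411 on the minus strand, has no such run at its annotated start and so no capitals.
Rps4x: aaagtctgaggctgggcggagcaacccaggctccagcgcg
A C at the annotated start with at least 4 pyrimidines after it was found in 8 of the 43 windows (18.6%), against 2.51% of 32851 promoters in the table. With its C allowed within 5 bases of the start, the motif was found in 19 (44.2%), against 18.3%. In the whole 300-base promoter, the letters CCGGAA, a core bound by ETS factors, were found on either strand in 25 (58.1%) against 14.9%, and GGGCGG in 23 (53.5%) against 35.7%. The letters TATAAA were found in 5 (11.6%) against 13.6%, and CACGTG in 5 (11.6%) against 7.15%. These are descriptions of letters in a window, not of sites in use.

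Deposited intensities were on the linear MAS5 scale, with a trimmed mean near 499.9 on every array, and array medians lay between 94.8 and 131. Differences between groups are given on the scale of log2(intensity + 17.8), where 17.8 is the 25th percentile of all values and keeps the log defined, at the price of understating changes of dim sets. Tests are from limma over 7456 genes, with Benjamini-Hochberg adjustment over all of them and a threshold of 0.05. The p-values measure the spread between these pools of mice, and the number of arrays limits the precision. All 10 epithelial markers lay above their array's median on all 6 arrays. All 9 T and NK cell markers lay below it on every array, as did 4 of 6 B and plasma cell markers. Jchain, of the latter list, had 186 and 2422 in control, 95.4 and 3094 in DSS and 97.5 and 1637 in tumor samples (replicate 1, then replicate 2). The summed intensity of 7 endothelial markers was 1230 on tumor replicate 2 and 176 to 401 elsewhere. Spiked poly-A controls had mean intensities of 948 on DSS replicate 1 and 631 on control replicate 1, and between 244 and 307 elsewhere.

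The ribosomal protein genes were tested in full: all 42 had a probe set above its array's median on at least 2 arrays, as did 80 of their 91 probe sets. None of the 42 passed the limma test in any of the 3 comparisons. Their values shifted together, by amounts of the size seen between arrays of a group. The median intensity of the 42 genes on the log2 scale was 13.78 and 13.93 on the control arrays, 14.14 and 13.92 on the DSS arrays, and 13.85 and 13.65 on the tumor arrays (replicate 1, then replicate 2). DSS replicate 1 stood highest and tumor replicate 2 lowest, while the other 4 arrays lay between 13.78 and 13.93. By gene, DSS replicate 1 held the highest of the 6 values for 36 of the 42 genes, and tumor replicate 2 the lowest for 35.

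**Figure D1:**
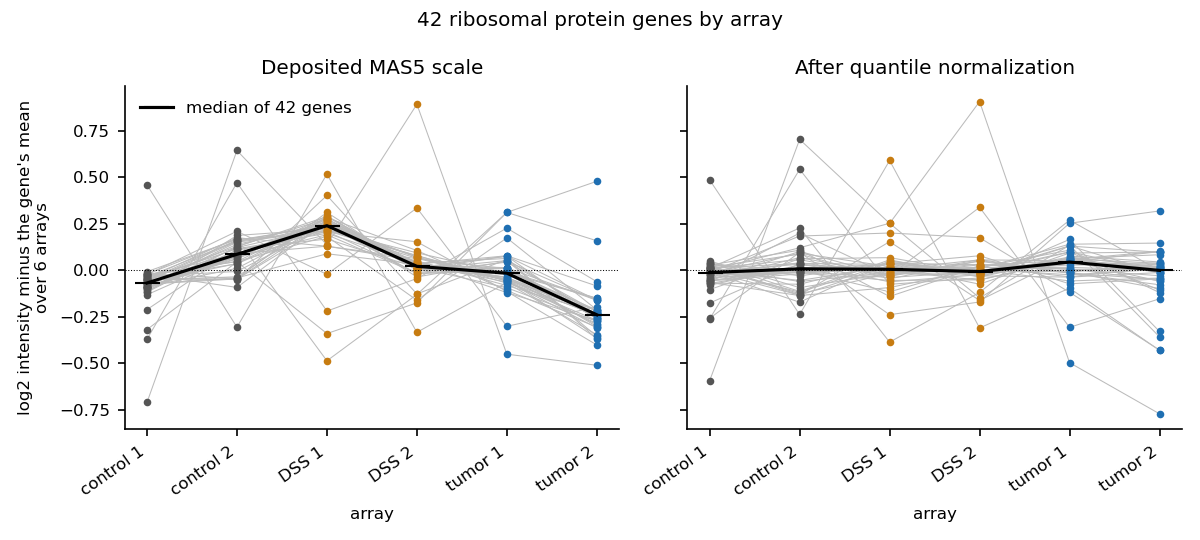
Log2 intensity of each of the 42 ribosomal protein genes on each array, minus that gene's mean over the 6 arrays, on the deposited scale (left) and after quantile normalization (right); grey lines join the values of a gene, colours mark the groups and the black line is the median. On the left the median is highest on DSS replicate 1 and lowest on tumor replicate 2. On the right it is nearly flat, on a scale that gives the brightest sets of all arrays 1 common set of values.

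The shifts within groups were of one sign for most of the genes. Control replicate 2 was above control replicate 1 for 38 of 42 genes, with a median difference of 0.17 (log2). DSS replicate 2 was above DSS replicate 1 for 5 of 42, with a median of -0.21, and tumor replicate 2 was above tumor replicate 1 for 2 of 42, with a median of -0.21. Over all 7456 genes the same medians were -0.01, 0.02 and 0.02.

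The first comparison, DSS against control crypts, asks for the early answer of the crypt to injury. Of the 42 genes, 39 were higher in DSS crypts and 3 lower, with a median log2 change of 0.12, or 1.08-fold, and a range from -0.38 to 0.55. None passed, as none of all 7456 genes did in either direction (0%), and 187 of all genes but none of the 42 had an unadjusted p under 0.05. The groups did not overlap for 11 of the 42 (26.2%), a total near the 26.5% of all genes tested. By direction, 10 were higher and 1 lower, against 953 higher and 1021 lower among the 7456 genes. The median over all genes was 0.00. Between arrays of the same number, which the labels do not tie to each other, DSS replicate 1 exceeded control replicate 1 for 40 of 42 genes (median 0.31), but DSS replicate 2 exceeded control replicate 2 for only 12 (median -0.06). The median change was 0.03 without DSS replicate 1 and 0.02 without control replicate 1, against 0.22 without DSS replicate 2 and 0.20 without control replicate 2. Quantile normalization moved it to 0.02 with 24 genes higher and 16 lower. That method gives the brightest sets of all arrays 1 common set of values. Of the 100 brightest sets, 32 carried 1 ribosomal protein symbol and 37 shared ones, so it can hardly show a shift of the whole family. DSS replicate 1 also had the highest poly-A spike signal and the lowest array median, and the part of these in the shift was not tested.

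The second comparison set adenomas against control crypts. Here 36 of the 42 genes were lower in tumor samples and 6 higher, with a median log2 change of -0.13, or 0.916-fold, on the deposited scale, but 0.02 after quantile normalization and -0.37 with each array centred on its median. Centring also moved the median of all genes from 0.05 to -0.20. The family's median lay 0.17 below that of all genes on both scales. Centring cannot change that distance, since it shifts all genes of an array alike. After quantile normalization the family's median lay 0.05 above that of all genes (0.02 and -0.03). None of the 42 passed and 1, Rps25, had an unadjusted p under 0.05, while 12.9% of all genes passed as higher (959) and 9.75% as lower (727). With median centring that split of all genes was 652 and 1222. The groups did not overlap for 9 of the 42 (21.4%), 1 higher and 8 lower, against 61.5% of all genes, 2521 higher and 2065 lower. All but 1 of the 42 changes (97.6%) were within 0.5 of 0, and so were 63.5% of those of all genes. Tumor replicate 1 exceeded control replicate 1 for 33 of 42 genes (median 0.05), and tumor replicate 2 exceeded control replicate 2 for 2 of 42 (median -0.31). The family's median on tumor replicate 1 lay between those of the 2 control arrays and that on tumor replicate 2 below both. The median change was -0.01 without tumor replicate 2 and -0.23 without tumor replicate 1. It was -0.21 without control replicate 1 and -0.06 without control replicate 2.

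Tumor replicate 2 also had the highest sums of fibroblast and myeloid markers. The summed intensity of 12 fibroblast markers was 16472 there, against 5430 on tumor replicate 1. It was 2857 and 5919 on the control arrays and 3748 and 7284 on the DSS arrays (replicate 1, then replicate 2). Vim made up 6413 of the sum on tumor replicate 2 and 3477 of that on tumor replicate 1. Postn and Lum were lower on both tumor arrays than on control replicate 2. On tumor replicate 1, Col1a1, Col1a2, Col3a1, Pdgfra, Pdgfrb, Thy1, Postn and Lum lay below both control arrays. Dcn and Sparc lay between the control arrays there, and only Vim and Fn1 above both. Smooth muscle sums were 1365 and 4075 in control, 1798 and 3869 in DSS and 829 and 1708 in tumor samples. In every group replicate 2 had the higher fibroblast sum and the higher smooth muscle sum, so this difference was not particular to the tumor arrays. The sum of 11 myeloid markers was 20830 on tumor replicate 2, 6191 on tumor replicate 1 and 1868 to 2454 elsewhere. S100a8, Lyz2 and S100a9 made up 6638, 5154 and 4555 of it on tumor replicate 2. Every myeloid marker but Itgam was highest on that array. Of the fibroblast and myeloid lists, 5 and 2 markers lay above the array median on all arrays, and none and 2 lay below it on all. Epithelial marker sums were 81278 and 73845 in control, 87406 and 77331 in DSS and 76388 and 73749 in tumor samples. As for the family, the highest was on DSS replicate 1 and the lowest on tumor replicate 2, but control replicate 2 was almost as low. The control arrays stood in the opposite order to the family, whose median was 13.78 and 13.93 there. The 3' to 5' log2 ratio of actin, a sign of RNA quality, was 0.953 and 1.04 in tumor samples, below its range of 1.197 to 1.63 in the remaining samples. The part of these differences in the ribosomal protein values was not tested. In such bulk RNA, fewer cells of a type and less RNA per cell cannot be told apart.

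The third comparison set adenomas against DSS crypts. Of the 42 genes, 39 were lower in tumor samples and 3 higher, with a median of -0.27, or 0.828-fold, on the deposited scale, -0.51 with median centring and -0.00 after quantile normalization, which gave 21 genes each way. None passed, against 14.9% of all genes as higher (1109) and 11.3% as lower (843), a split that median centring turned to 701 and 1256, and 5 of the 42 had an unadjusted p under 0.05. Groups did not overlap for 27 (64.3%), a total near the 66% of all genes. The directions differed, with 25 lower and 2 higher in the family against 2289 lower and 2634 higher among the 7456 genes. The median was -0.15 when DSS replicate 1 was left out, -0.16 when tumor replicate 2 was, and -0.38 when DSS replicate 2 or tumor replicate 1 was. Both comparisons with tumor samples share the same tumor arrays, and those with controls the same control arrays, so the 3 sets of values are not independent.

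**Figure D2:**
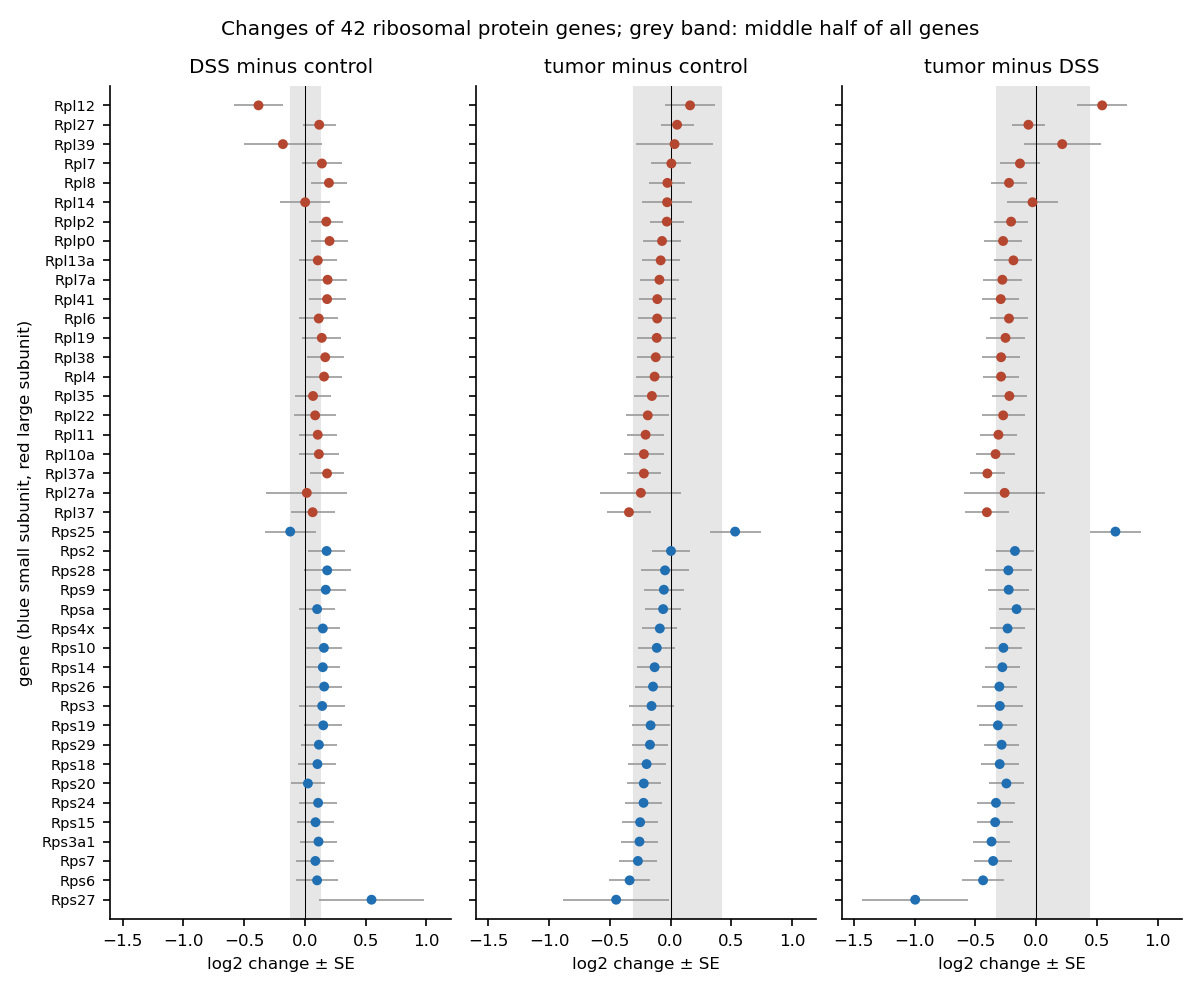
Log2 change ± SE of each ribosomal protein gene in the 3 comparisons (limma, 2 arrays per group), with small subunit genes in blue below and large subunit genes in red above; the grey band spans the middle 50% of all 7456 genes. Most genes sit close together, and Rps25, Rps27, Rpl12 and Rpl39 stand off with dim probe sets.

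Small subunit genes (20) had medians of 0.13, -0.16 and -0.29 in the 3 comparisons in the same order, and large subunit genes (22) had 0.12, -0.11 and -0.26. The small subunit's median minus the large subunit's on the same array was 0.27 and 0.17 in control, 0.19 and 0.18 in DSS and 0.18 and 0.20 in tumor samples, so both other groups lay within the span of the controls. Small subunit proteins bind the messenger RNA and decode it. The members were Rpsa, Rps2, Rps3, Rps3a1, Rps4x, Rps6, Rps7, Rps9, Rps10, Rps14, Rps15, Rps18, Rps19, Rps20, Rps24, Rps25, Rps26, Rps27, Rps28 and Rps29. Large subunit proteins frame the site of peptide bond formation and the exit tunnel. The members were Rplp0, Rplp2, Rpl4, Rpl6, Rpl7, Rpl7a, Rpl8, Rpl10a, Rpl11, Rpl12, Rpl13a, Rpl14, Rpl19, Rpl22, Rpl27, Rpl27a, Rpl35, Rpl37, Rpl37a, Rpl38, Rpl39 and Rpl41.

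Rplp0 and Rplp2 belong to the stalk that recruits elongation factors. Rplp0 had intensities of 16477 and 16684 in control, 20897 and 17412 in DSS and 17261 and 14452 in tumor samples. Rplp2 had 16555 and 16575, 20286 and 17254, and 17034 and 15434. Both DSS arrays exceeded both controls for each, and tumor replicate 2 was the lowest, with log2 changes of 0.20 and 0.18 in DSS and -0.07 and -0.03 in tumor against control. Rpl11, which with Rpl5 carries 5S ribosomal RNA and can bind the p53 ligase Mdm2, had 12943 and 15241, 15909 and 14350, and 13192 and 11246. Its change of -0.21 in tumor against control did not pass (adjusted p = 0.376, limma).

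Rps6, the S6 kinase substrate of the small subunit, had intensities of 1694 and 1913 in control, 1966 and 1896 in DSS and 1573 and 1285 in tumor samples. Both tumor arrays lay below the other 4, with a change of -0.34 ± 0.17 (SE) that did not pass (adjusted p = 0.19, limma). On the brightest of its shared probe sets Rps6 had 17607 and 19186, 23031 and 17760, and 18521 and 15697, with overlap of tumor and control samples and a change of -0.11. Its 8 shared sets that passed the filter had changes from -0.51 to -0.10. Rps3a1, a small subunit protein, had 19069 and 22133, 23599 and 20883, and 18941 and 15629, with both tumor arrays below both controls and a change of -0.26 ± 0.16. Rps7, Rps15, Rps20 and Rps24 had changes of -0.27, -0.25, -0.22 and -0.22, also without overlap. Rpl37 and Rpl37a, zinc-binding proteins of the large subunit, had -0.34 and -0.22 and were the only large subunit genes without overlap in this comparison. Rps19, whose loss of 1 copy causes Diamond-Blackfan anemia in people, had 11255 and 12960, 13991 and 12849, and 11902 and 9758, and its groups overlapped in tumor against control.

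Rpsa, which doubles as a laminin receptor, had 15356 and 17308, 18782 and 16261, and 16607 and 14707. Rpl13a, a large subunit protein often used as a reference gene, had 20205 and 23185, 25160 and 21563, and 22437 and 18654. Rps18, another common reference gene, had 19570 and 22729, 24411 and 21015, and 20106 and 16830. On these sets the tumor and control groups overlapped for all 3 genes. Their log2 changes in tumor against control were -0.06, -0.08 and -0.20. The 4 sets of Rpl13a that passed the filter differed in direction there, with changes of -0.11, -0.08, 0.17 and 0.27. The set with 0.27 had 2745 and 3301 in control and 3561 and 3686 in tumor samples, without overlap. Rps28 and Rps29, small subunit proteins, are 2 of the family's brightest sets. Rps28 had 19870 and 19752, 27026 and 18721, and 21285 and 17308. Rps29 had 21904 and 25298, 27321 and 23781, and 22235 and 19702, with its 2 DSS arrays on either side of control replicate 2. Rpl8, at the peptidyl transferase centre, had 11076 and 10549, 13533 and 11354, and 11131 and 10125, with both DSS arrays above both controls. Rpl27, a large subunit protein, was among the few with a positive change in tumor against control (0.05), from 10644 and 10880 to 11819 and 10558. The 4 exit region genes on the array (Rpl4, Rpl19, Rpl35 and Rpl39) had a median of -0.12, and the 4 genes of the messenger RNA channel and decoding region (Rps2, Rps3, Rps9 and Rps15) one of -0.11.

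Classes of genes by this motif at the annotated start had similar medians. The 8 with a C at the annotated start and a pyrimidine run, the 5 printed among them, had medians of 0.13, -0.14 and -0.28 in the 3 comparisons. The 10 with such a C only within 5 bases had 0.12, -0.09 and -0.24, and the 19 with neither had 0.11, -0.16 and -0.29. The last class includes genes with a shorter pyrimidine run at the start, such as Rps28 and Rpl27. The classes depend on where RefSeq places the start, and the differences between them were not tested.

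The spread among the 42 genes lay in dim probe sets. Probe-set intensities do not rank genes, but they do show where the measurement is noisy. With a division at a mean intensity of 5000, chosen after the values were seen, 34 genes lay above it, all with means from 10844 to 23374, and 8 below it, with means from 130.0 to 2410.1. All 34 were higher in DSS than in control samples (median 0.14, SD over genes 0.04) and lower in tumor than in DSS samples (median -0.27, SD 0.07), and 31 were lower in tumor than in control samples (median -0.13, SD 0.08). The 8 dim ones (Rpl12, Rpl14, Rpl27a, Rpl37, Rpl39, Rps6, Rps25 and Rps27) had medians of 0.01, -0.14 and -0.14, with SDs of 0.27, 0.33 and 0.55. The lowest mean of the bright genes exceeded 99% of all probe sets.

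**Figure D3:**
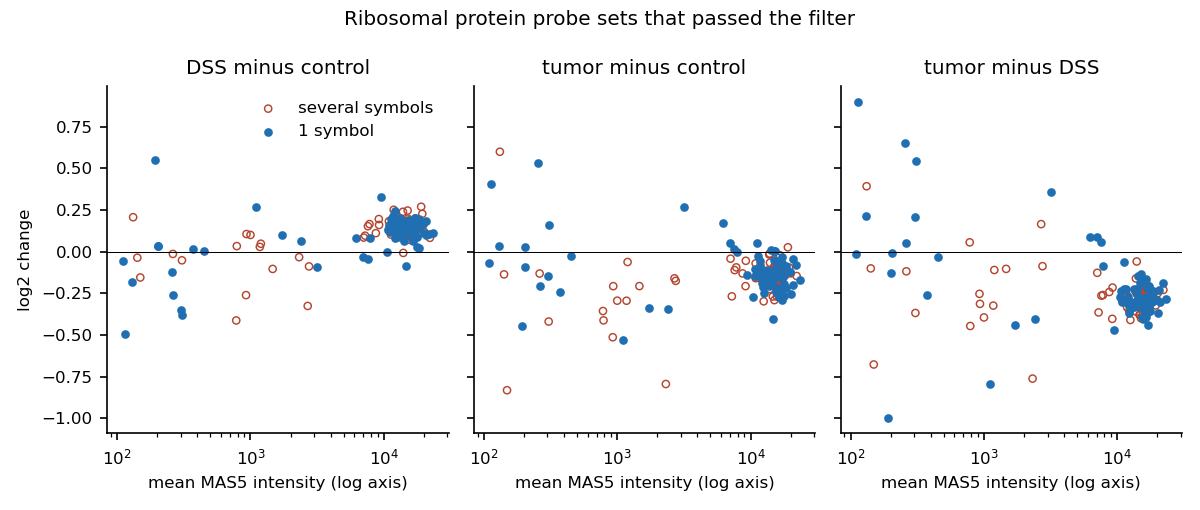
Log2 change of every ribosomal protein probe set that passed the filter against its mean MAS5 intensity (log axis), for sets with 1 symbol (filled blue) and sets whose symbols hold 1 ribosomal protein gene beside pseudogenes or predicted genes (open red). Bright sets of both kinds gather in a narrow cluster, and the large changes of either sign belong to dim sets.

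The largest departures came from such dim sets. Rps25, a small subunit protein used by some viral entry sites, had 197 and 259 in control, 194 and 219 in DSS and 315 and 355 in tumor samples. Both tumor arrays exceeded the other 4, with log2 changes of 0.53 ± 0.21 (SE; adjusted p = 0.106, limma) against control and 0.65 ± 0.21 (adjusted p = 0.0526) against DSS crypts. The latter passed with the mean over probe sets (adjusted p = 0.0439), without an intensity trend (0.0499) and when arrays were centred on the family (0.0349). A brighter Rps25 probe set that also carries other symbols had 10648 and 12165, 12923 and 11565, and 11464 and 9092, with a change of -0.16 in tumor against control. The 2 probe sets for this gene therefore gave opposite directions.

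Rps27, a zinc-binding protein of the small subunit, had 99.6 and 282 in control, 193 and 339 in DSS and 123 and 117 in tumor samples. Its change of -0.995 ± 0.43 in tumor against DSS crypts was the lowest of the 42, with control arrays that spanned both tumor arrays and 1 of the DSS arrays, and it did not pass (adjusted p = 0.13, limma). It passed in tumor against DSS crypts when either control array was left out (adjusted p = 0.045 and 0.0489). Rpl12, a protein at the base of the stalk, had 298 and 342, 211 and 275, and 379 and 339. Both DSS arrays lay below both controls, against the family's direction, with a change of -0.38 ± 0.20. The 2 shared probe sets for Rpl12, both brighter, had changes of 0.11 and 0.14 in DSS and -0.14 and -0.16 in tumor samples. Rpl39, at the exit tunnel, had 94.3 and 183 in control samples on its dim set. Its change in tumor against control was 0.03 on that set and 0.03 on its bright shared set. The dim and shared sets had opposite signs in DSS against control (-0.18 and 0.27) and in tumor against DSS crypts (0.21 and -0.24). Rpl14 and Rpl27a had changes of -0.03 and -0.24 on their own sets, and between -0.18 and -0.11 on 6 shared ones.

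Probe sets that carry several symbols widened the view. A family symbol occurred on 102 such sets, and 30 family symbols, among them Rpl3, Rpl5, Rpl10, Rplp1, Rps13, Rps16 and Rps23, occurred only there. For 92 of the sets the other symbols were pseudogenes or predicted genes, and 84 of these, for 35 genes, passed the filter. Their median changes were 0.13, -0.14 and -0.27, with 73, 2 and 3 of 84 higher. These medians were within 0.02 of those of the 42 genes, on the same 6 arrays. Rplp1, partner of Rplp2 in the stalk, had 14847 and 16250 in control, 18717 and 15865 in DSS and 15085 and 13128 in tumor samples on its shared set. Rpl5, partner of Rpl11, had 16347 and 18464, 21289 and 17886, and 17164 and 14397 on the brightest of its 3 shared sets. Rpl3, at the entrance to the peptidyl transferase centre, had 15745 and 16320, 18796 and 16473, and 15989 and 14305 on its bright shared set. For all 3, DSS replicate 1 was the highest array and tumor replicate 2 the lowest. Fau, which encodes a small subunit protein fused to a ubiquitin-like domain and lies outside the name rule, had 13110 and 14487, 16290 and 14484, and 12873 and 11116 (tumor against control -0.20, adjusted p = 0.354, limma).

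Of the 42 genes and 4 tested paralogs, 19 had at least 2 probe sets that passed, 60 sets in all. Within a gene the sets' changes spanned a median of 0.10 in DSS and 0.11 in tumor samples against control. The widest span was that of Rps9, a decoding region protein, with 0.66 and 0.68. Its brightest set had 10912 and 11680 in control, 13897 and 11628 in DSS and 12222 and 9661 in tumor samples. Its dim set had 78.7 and 152, 71.1 and 75.7, and 135 and 172, lying above its array's median on 3 arrays only.

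Rps4l was the exception among the 48 genes. It is a paralog of Rps4x on chromosome 6, which RefSeq lists as a transcribed pseudogene, and it has 1 probe set. Its intensities were 819 and 695 in control, 790.1 and 851 in DSS and 3.82 and 63.3 in tumor samples. Both tumor arrays lay far below the other 4, which lay close together. The means were 757 ± 87.4, 821 ± 43.3 and 33.5 ± 42.03 (SD, n = 2 each). Rps4l fell by 4.21 ± 0.51 on the log2 scale (SE; adjusted p = 0.00103, limma) in tumor against control. In tumor against DSS crypts its change was -4.32 ± 0.51 (adjusted p = 0.000802). In DSS against control crypts its change was 0.12 ± 0.51 (adjusted p = 1.0). Both tumor values lay below their array's median, and that of replicate 1 below the pseudocount, so the fitted size of the fall depends on it and is no bound. With both tumor values raised to their array's median, a floor chosen after the values were seen, control samples were at least 6.21-fold and DSS samples at least 6.75-fold higher. Without tumor replicate 1 the change against control was -3.25, and without tumor replicate 2 it was -5.16. Across 22 alternatives the change against control lay between -5.42 and -2.65, and Rps4l was called in all 22 (largest adjusted p = 0.0098, limma).

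**Figure D4:**
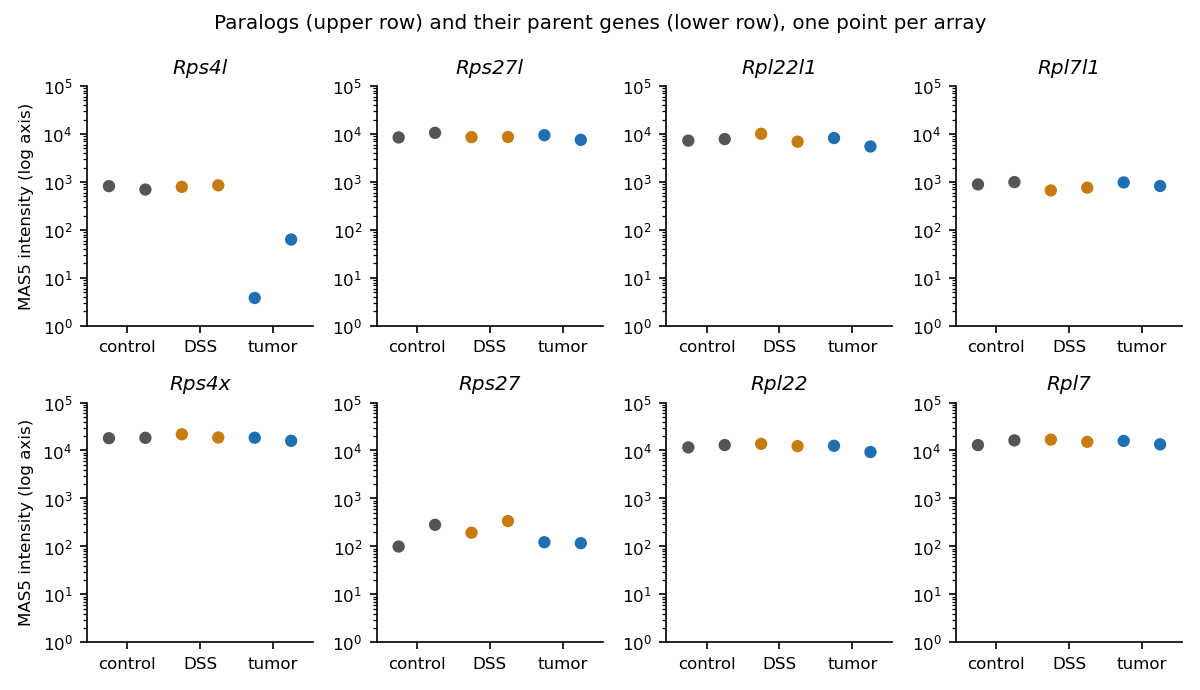
MAS5 intensity on a log axis, 1 point per array and 2 per group, for 4 paralogs (upper row) and the genes they resemble (lower row). Rps4l is between 695 and 851 on the control and DSS arrays and at 3.82 and 63.3 on the tumor arrays, while Rps4x keeps its level on all 6.

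Rps4x, the X-linked gene that encodes the small subunit protein itself, did not follow. It had 18027 and 18358 in control, 21787 and 18628 in DSS and 18417 and 15899 in tumor samples. Its change was -0.09 ± 0.15 in tumor against control (adjusted p = 0.702, limma). Genes next to Rps4l in RefSeq's order did not move with it as a block. The nearest tested genes on either side, Ergic2 and Ipo8, had changes of -0.04 each, with adjusted p of 0.925 and 0.906. Farther out, Rep15 changed by -1.91 (adjusted p = 0.00511, limma) and Sinhcaf by 1.23 (adjusted p = 0.00219). The other 6 of the 10 nearest tested genes had changes from -0.62 to 0.22 and did not pass.

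No other paralog was called in any of the 3 comparisons. Rps27l, a relative of Rps27 known as a p53 target, had 8473 and 10562 in control, 8605 and 8658 in DSS and 9443 and 7557 in tumor samples. Its 3 probe sets gave changes within 0.06 of each other in every comparison. Rpl22l1, which can take the place of Rpl22 in the large subunit, had 7283 and 7826, 10100 and 6914, and 8230.5 and 5493. Rpl22 had 11612 and 12986, 13761 and 12310, and 12528 and 9278. Their changes in tumor against control were -0.17 and -0.19, neither called. A second Rpl22 set, with 983 and 1317, 1382 and 1363, and 912 and 671, had -0.53 there, with both tumor arrays below the other 4. Against DSS crypts this set changed by -0.80 and passed when each probe set was tested on its own (adjusted p = 0.0303, limma).

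Rpl7l1, a relative of Rpl7, had 888 and 994 in control, 666 and 760.3 in DSS and 979 and 825 in tumor samples. Both DSS arrays lay below the other 4, with a change of -0.39 ± 0.18 against control (unadjusted p = 0.0557; adjusted p = 1.0, limma). A second Rpl7l1 set had -0.25 there, but its groups overlapped. Rpl3l and Rpl39l, relatives of Rpl3 and Rpl39 known from muscle and testis, lay below the median on every array, with intensities from 0.733 to 6.22 and from 1.69 to 13.3, and were not tested.

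Several genes of translation and ribosome assembly passed in the tumor comparisons, in lists chosen for their roles. No gene of these lists passed in DSS against control crypts, where 2 assembly factors, 1 initiation factor and 1 elongation or release factor had an unadjusted p under 0.05, and the counts that follow are from limma. Of 21 chaperones and assembly factors of the subunits, 4 passed as higher and none as lower in tumor against control. In tumor against DSS crypts, 8 passed as higher and none as lower. Over all genes, 12.9% passed as higher and 9.75% as lower in the former and 14.9% and 11.3% in the latter, with median centring turning those splits toward lower calls (652 higher and 1222 lower; 701 and 1256). Rrs1, which loads Rpl5 and Rpl11, had 668 and 494 in control, 489 and 529 in DSS and 1192 and 1201 in tumor samples, and rose by 1.04 ± 0.19 (adjusted p = 0.0066). Ltv1, an assembly factor of the small subunit, had 772 and 618, 597 and 545, and 1262 and 1385, and rose by 0.92 ± 0.18 (adjusted p = 0.00859), a call that ended without control replicate 2 (0.76, adjusted p = 0.0538). The chaperone Nap1l1, also counted among the TOP genes below, rose by 0.99 ± 0.16. The list's median was 0.17 in tumor against control and 0.37 against DSS crypts, beside 0.05 and 0.04 over all genes.

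Of 30 initiation factors, 4 passed as higher and 1 as lower in tumor against control, near the 12.9% of all genes for the former. Eif4e, the cap-binding protein, had 1044 and 974 in control, 787 and 994 in DSS and 1524 and 1518 in tumor samples. It rose by 0.58 ± 0.17 (adjusted p = 0.0447), and Eif3b and Eif2b4 rose by 0.86 and 0.58. The calls of Eif4e and Eif2b4 held in 8 and 9 of 22 alternatives and ended without any single one of the 6 arrays. That of Eif3b held in 17 and ended without control replicate 2 or tumor replicate 2. Eif4a2, a helicase of the cap complex, had 7538 and 6467, 7189 and 5785, and 3581 and 3357, and fell by 1.01 ± 0.17 (adjusted p = 0.00446), with the call in all 22 alternatives. Eif4a1, the other such helicase, had 5784 and 6242, 5191 and 5401, and 8576 and 7888. It rose by 0.63 ± 0.14 against DSS crypts (adjusted p = 0.013), while its change of 0.45 against control did not pass (adjusted p = 0.0518), but did with quantile normalization (0.66, adjusted p = 0.0044), with the 75th percentile filter, with the mean over probe sets and when centred on the family. The call against DSS crypts ended without either DSS array or tumor replicate 1, and with median centring (0.40).

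Of 11 elongation and release factors, none passed against control, where 2 had an unadjusted p under 0.05, and Abce1 and Gspt1, which act in ribosome recycling and termination, passed as higher against DSS crypts (0.85 and 0.68), beside 14.9% of all genes. Both calls ended with median centring. That of Abce1 also ended without DSS replicate 1 and without the probe sets of suffix _x_at and _s_at, and that of Gspt1 without either DSS array or tumor replicate 1. Of 21 other genes with TOP messages, Vim and Nap1l1 passed as higher and Eif4a2 as lower in both tumor comparisons, no larger shares than those of all genes, with a list median of -0.03 against control and -0.19 against DSS crypts. Vim is also a fibroblast marker. The abundant elongation factor gene Eef1a1 and Tpt1, both with TOP messages, had changes of -0.10 and -0.12 in tumor against control, and DSS replicate 1 was the highest array for both (22007 and 22895). Eef2, the translocation factor, had a change of 0.16 there and did not pass. Of 9 genes of the mTORC1 branch, 1 passed against control, as lower, beside 9.75% of all genes. Against DSS crypts 1 passed in each direction, beside 14.9% of all genes as higher and 11.3% as lower. Deptor, an inhibitor of mTOR, fell by 1.07 ± 0.17 against control (adjusted p = 0.00332, limma). It went from 1324 and 1139 in control to 608 and 545 in tumor samples. The translational repressor Eif4ebp1 passed as higher against DSS crypts (0.71, adjusted p = 0.0248). Against control its change of 0.56 did not pass (adjusted p = 0.0645), but did in 4 alternatives, the mean over probe sets among them (0.68, adjusted p = 0.0275). The call against DSS crypts ended with median centring and when any DSS or tumor array was left out. Mtor and Larp1 had changes of 0.36 and 0.33 and did not pass. Of 7 p53 genes, 1 passed in tumor against control, as higher, beside 12.9% of all genes. It was Phlda3, which rose by 1.60 ± 0.23, while Mdm2 (0.48) and Cdkn1a (-0.33) did not pass. In that comparison 3 of the 7 were higher and 4 lower, with a list median of -0.08.

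**Figure D5:**
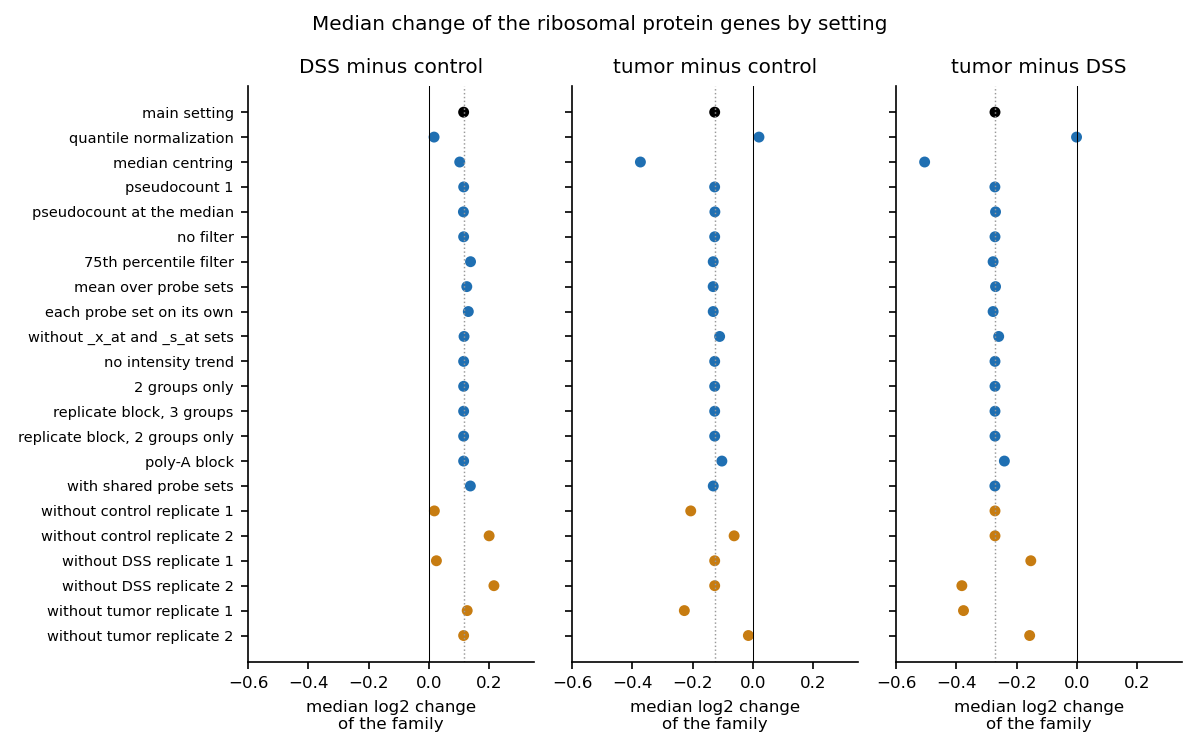
Median log2 change of the tested ribosomal protein genes in the 3 comparisons under each setting, with the main setting in black, other processing in blue and 1 array left out in orange; the dotted line marks the main value. Quantile normalization brings the medians to 0.02, 0.02 and -0.00, and the tumor against DSS median is -0.15 with DSS replicate 1 left out and -0.16 with tumor replicate 2 left out.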

How the data were processed

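The authors' deposited table held MAS5 intensity values, linear and 1 per probe set, for 22690 probe sets, of which 64 were controls and were set aside. The submitters' processing notes name MAS5 without a version. Scanner files and detection calls were not used here. Probe sets were named from the platform annotation, and 99.9% of those with 1 symbol matched a RefSeq gene.

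Values were taken as log2(intensity + 17.8). A probe set was kept where it exceeded the median of its array on 2 or more arrays (12146 sets), and the set of highest mean stood for its gene (7456 genes). The 3 groups entered a single limma fit (version 3.58.1, R 4.3.3), moderated with a trend on intensity, with 2-sided p-values adjusted over all genes by Benjamini-Hochberg. The fit was tested on simulated data. Lists were described by counts and medians, without a list test. The members and lists were chosen with earlier results of these data known.

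Named genes were the 4 of smallest p per direction in each comparison, where none was called, the 4 of highest and the 4 of lowest intensity, a fixed set, all paralogs, and up to 3 called genes per direction of each other list with a fixed few. Rps9, Rpl14, Rpl27a and the neighbours of Rps4l were named after their values were seen. Replicate numbers were not taken as pairs. Alternatives covered scaling, pseudocount, filter, probe set handling, the trend, fits of 2 groups, blocks and each array left out. Python 3.11.15 and matplotlib 3.10.9 drew the figures.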

Additional observations from a re-analysis of the deposited data

How the results depend on the processing

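The counts of 0 called ribosomal protein genes in DSS against control held in every alternative run. In tumor against control, 1 gene (Rps27) passed with a block for the arrays of high poly-A signal, and none in the other alternatives. In tumor against DSS crypts, 1 gene passed with median centring or 2 groups only (Rps27), with the mean over probe sets, without an intensity trend or with the replicate block in 3 groups (Rps25) and with each probe set on its own (Rpl22), and 2 passed with the poly-A block (Rps27 and Rpl37). A fit of the 2 groups with the replicate block, which leaves 1 residual degree of freedom before moderation, called 25 of 42, and 39.4% of all genes. Same-numbered arrays deviated with correlations of 0.45 (control and DSS), 0.08 (control and tumor) and 0.44 (DSS and tumor) over all genes. Over the ribosomal protein genes the correlations were 0.81, 0.17 and 0.47. They leave out a shift common to the family, whose median from replicate 1 to replicate 2 was 0.17 in control but -0.21 in DSS samples. With 2 numbers and no label that ties them, same-numbered arrays were not taken as pairs. Leaving out an array gave 0 to 1. The tumor against control median moved to 0.0208 with quantile normalization and -0.373 with median centring, and the tumor against DSS median to -0.000595 and -0.506. With an array left out, the medians were 0.02 to 0.22 in DSS against control, -0.23 to -0.01 in tumor against control and -0.38 to -0.15 in tumor against DSS crypts. Over the values of single genes, 2437 kept their side of the threshold or moved within the spread, 59 lost a call, 42 gained one and 213 moved by more than the spread. No called value changed sign, but 137 values without a call did, such as Rps24 in DSS against control (0.11 to -0.35 without _x_at and _s_at sets) and Rpl39 in tumor against control (0.03 to -0.39 without control replicate 1). Quantile normalization gives the brightest sets of all arrays 1 common set of values, and of the 100 brightest sets 32 carried 1 ribosomal protein symbol and 37 shared ones. With shared probe sets added as members, chosen after seeing the data, none of 67 genes passed. Without detection calls, the signal of Rps4l in tumor samples could not be told from background.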
